A study of Rattus norvegicus with 6 samples.

Results

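Cytokinesis is the step that splits a dividing cell after its chromosomes have separated. The central spindle recruits an activator of the small GTPase RhoA to the cell equator, RhoA drives assembly of a contractile ring of actin and myosin, and the ring closes down to a thin bridge, the midbody, which ESCRT filaments finally cut (abscission). Adult β-cells are mostly at rest and part of the rodent β-cell pool can hold more than 1 nucleus or genome copy, so the genes of this step are of interest in β-cells that have copied their DNA.

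The genes described are 10 that act along this route: *Ect2*, *Racgap1* and *Prc1* at the central spindle, *Rhoa* with *Arhgap11a*, *Cit* and *Diaph3* as regulator and effectors, *Anln* in the ring, *Cep55* at the midbody and *Chmp4b* in the ESCRT filament. They were found on the arrays by gene name alone, which gave 15 probes on 26 spots, of 45598 probes on 58717 spots and 20110 named genes. No further probe carried a RefSeq transcript of these genes under another name. *Racgap1* and *Diaph3* had 3 probes each and *Prc1* had 2, and the other genes had 1 probe each, printed on 1, 2 or 10 spots.

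Islets came from young adult male Wistar rats with no genetic change, 4 rats to each of 3 islet preparations, and were cultured overnight from the day of isolation with EdU, a thymidine analogue built into newly made DNA. Cells of both groups were dispersed, loaded with the zinc dye Newport Green to mark β-cells, and fixed with paraformaldehyde. The study reports that fixation and permeabilization weakened the green signal. β-cells were gated by large size, high granularity and high Newport Green signal together. They were sorted into an EdU+ fraction (replicating) and an EdU- fraction (quiescent). The EdU+ gate therefore holds cells that made DNA during the culture, in whichever phase they were when fixed. Each preparation gave 1 array of each fraction, so there were 3 replicating and 3 quiescent arrays, each of cells pooled from 4 rats. Amplified RNA was hybridized in 1 colour, and values are normalized log2 intensities. The comparison asks how transcripts of replicating β-cells differ from those of quiescent β-cells of the same islets. In bulk samples, fewer cells of a type and less RNA per cell cannot be told apart.

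All 6 arrays lay on 1 slide. Between 84.3% and 98.7% of spots were well above background, and no spot was saturated. The quiescent array of preparation 2 stood apart, with Spearman correlations of 0.58 to 0.776 with the other arrays against 0.949 to 0.979 among the replicating arrays, and with 1589 spots marked as outliers against 256 to 299 on the others. The quiescent array of preparation 3 correlated with the replicating arrays at 0.927 to 0.962. Proliferation genes were read as a check of the labels: *Mki67*, *Pcna*, *Top2a*, *Cdk1* and *Ccnb1* all passed the call as higher in replicating cells, with log2 ratios of 1.68 to 4.38. *Top2a* and *Cdk1* stand in the study's list of its strongest genes, chosen on these arrays, so their calls are not independent evidence. The ratios in preparations 1, 2 and 3 were uneven for *Mki67* (2.27, 0.63 and 4.08) and *Pcna* (1.87, 2.43 and 0.73).

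Of the 10 genes, 9 were higher in replicating cells, by log2 ratios of 1.09 to 5.24, and none was lower. A gene was called where the unadjusted p did not exceed 0.05 and the log2 ratio was 1 or more in size, in limma's test blocked by islet preparation. The study picked genes from the arrays by the same thresholds, and reported more genes in each direction than the probes that passed here. For its heat map it used stricter thresholds. In the fit used here, 4.43% of all 45598 probes passed the call as higher and 4.18% as lower. No probe had an adjusted p (Benjamini-Hochberg) under 0.05 (0%), although 9.6% had an unadjusted p under 0.05, so none of the 9 genes passed the adjusted threshold and the smallest adjusted p, 0.0977, was shared by *Prc1* and *Cep55*. The median log2 ratio of the 10 genes was 3.34, beside -0.07 over all probes. By preparation it was 3.17, 3.74 and 2.91 in 1, 2 and 3, with *Racgap1* missing in preparation 2. With *Ect2* set at its lower bound, the median is the same. In 9 genes every replicating array was above every quiescent array, which held for 9.12% of all probes, and in none were all replicating arrays below (7.13% of probes). For *Racgap1* this rests on 2 quiescent arrays. Its outlier spot left out in preparation 2 read 10.89, above all its replicating values. Without preparation 2, and so without the array that stood apart, 9 genes were again called and the median was 3.01. *Ect2*, *Prc1*, *Cep55* and *Arhgap11a* also stand in the study's own list of its strongest genes, chosen on these arrays, so their direction is not independent evidence. The other 6 genes, read on the same arrays and also chosen with earlier results known, had a median of 1.97, with 5 called.

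**Figure D1:**
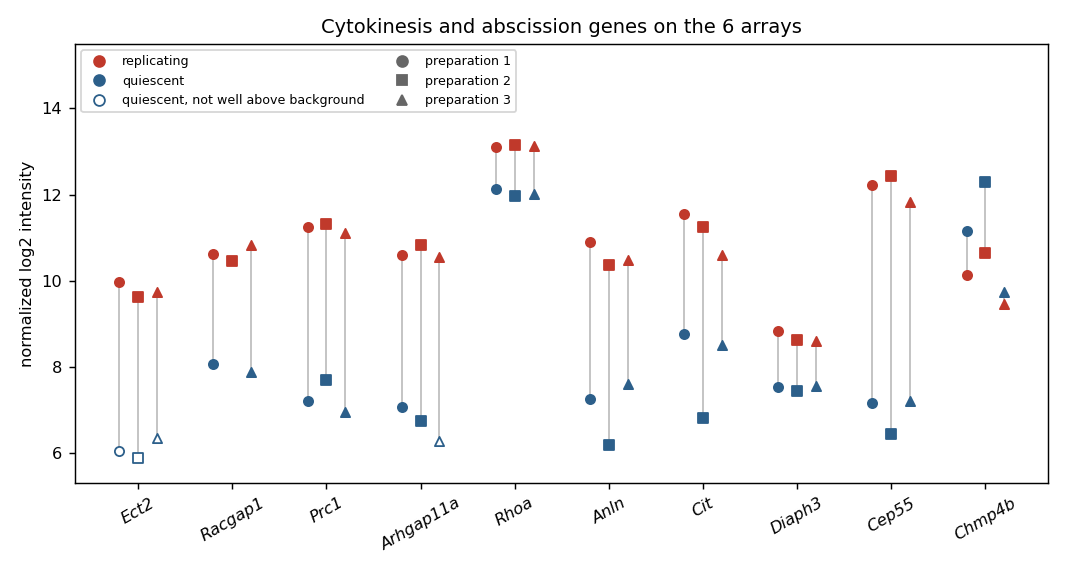
Normalized log2 intensity (vertical axis) of the brightest probe of each gene on the 6 arrays, red for replicating and blue for quiescent cells, with a marker shape for each islet preparation and a grey line joining the arrays of 1 preparation. Open symbols were not well above background. Replicating arrays lie above all quiescent arrays for each gene but *Chmp4b*, and the quiescent value of *Racgap1* in preparation 2 is absent because its spot was marked as an outlier.

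At the central spindle, *Ect2* encodes the exchange factor that loads RhoA with GTP at the equator. Its probe (rn4, chr2:112969387-112969446, minus strand, 2 spots) read, in the order of preparations 1, 2 and 3 kept throughout, 9.98, 9.61 and 9.73 in replicating and 6.04, 5.87 and 6.35 in quiescent cells. All replicating arrays were high and close together. On the quiescent arrays the probe was not well above background, so the ratio of the group means has only a lower bound. *Ect2* was higher in replicating cells by 12.7-fold or more at the group means. That bound sets the replicating mean against a quiescent mean of 6.10, in which each array is raised to the dimmest signal well above background where it reads lower. The fit's adjusted p for *Ect2* was 0.109.

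*Prc1* encodes the protein that bundles the antiparallel microtubules of the central spindle. Its brighter probe (chr1:136132672-136132731) read 11.25, 11.30 and 11.09 in replicating and 7.20, 7.68 and 6.94 in quiescent cells. The replicating arrays were at least 3.41 above any quiescent one, and the log2 ratio of 3.94 (SE 0.32) is a 15.4-fold difference (95% interval 8.77 to 26.9). The dimmer probe, in the same gene, gave 2.94 (SE 0.37).

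*Racgap1* encodes the GTPase-activating subunit of centralspindlin, the complex that brings Ect2 to the equator. Its brightest probe (chr7:138366770-138366829) read 10.61, 10.45 and 10.83 in replicating cells, and 8.05 and 7.87 in the quiescent cells of preparations 1 and 3. The quiescent spot of preparation 2 was marked as an outlier and left out, and limma then drops the whole pair, so the log2 ratio of 2.76 (SE 0.42, unadjusted p 0.0025) rests on 2 preparations. The spot left out had read 10.89, above its replicating partner by 0.43, and with it kept the ratio was 1.69 (unadjusted p 0.0669), past the call no longer. Both other probes of *Racgap1* had values in all 3 preparations and gave 2.28 (SE 0.33) and 2.68 (SE 0.32). In preparation 2 those probes differed by 2.50 and 2.66, so the marked spot stands against both of them. The sequence of the brightest probe is shown because that single spot decides its call.
*Racgap1* brightest probe: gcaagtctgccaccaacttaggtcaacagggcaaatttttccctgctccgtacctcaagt

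*Kif23* encodes the kinesin that forms centralspindlin together with Racgap1. It read 11.09, 10.93 and 11.62 in replicating and 10.67, 10.87 and 9.61 in quiescent cells. Its log2 ratio of 0.83 (SE 0.48, unadjusted p 0.143) did not pass the call, and most of it came from preparation 3, where it was 2.01 against 0.42 and 0.06 in the others. Without preparation 2 it was 1.22 (unadjusted p 0.0414), past the call, and without preparation 3 it was 0.24 (unadjusted p 0.576). Whether the partners differ from each other was not tested.

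In the RhoA branch, *Rhoa* encodes the GTPase itself. Its probe read 13.10, 13.16 and 13.12 in replicating and 12.13, 11.97 and 12.01 in quiescent cells. The arrays of a group lay close together (SD 0.033 in replicating and 0.083 in quiescent cells, 3 arrays each) and the groups were apart by 0.96. The ratio was 1.09 on the log2 scale (SE 0.30), or 2.12-fold (95% interval 1.24 to 3.63, unadjusted p 0.0152, adjusted p 0.475). *Rhoa* lost the call without preparation 1 (1.15, unadjusted p 0.097). The files place the probe on the rn4 sequence chr16_random:1043046-1043105, whereas RefSeq gives *Rhoa* on chromosome 8 of the assembly GRCr8.

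The relatives of *Rhoa* were in the same range. *Rhob* had a ratio of 0.87 (SE 0.32, unadjusted p 0.0394) and 1.35 (SE 0.48, unadjusted p 0.0359) at its dimmer probe, and *Rhoc* had 0.76 (SE 0.35, unadjusted p 0.0815). Only the dimmer *Rhob* probe passed the call, and its groups overlapped.

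*Arhgap11a* encodes a GTPase-activating protein that is made in dividing cells. Its probe (chr3:99678064-99678123) read 10.60, 10.83 and 10.54 in replicating and 7.05, 6.73 and 6.27 in quiescent cells, the last not well above background. All quiescent arrays were low, and the log2 ratio was 3.97 (SE 0.33), a 15.7-fold difference (95% interval 8.74 to 28.1, adjusted p 0.109).

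*Cit* encodes citron kinase, an effector of RhoA that stays at the midbody. The probe (chr12:41865182-41865241) read 11.55, 11.24 and 10.60 in replicating and 8.76, 6.81 and 8.49 in quiescent cells. Its preparations spread most of the genes called, with ratios of 2.79, 4.43 and 2.11, and the high one came from the quiescent array that stood apart. The log2 ratio was 3.11 (SE 0.53), or 8.64-fold (95% interval 3.42 to 21.8, adjusted p 0.330). *Cit* was called under all 14 other settings tried, with ratios from 2.45 to 3.61.

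*Diaph3* encodes a formin that nucleates the straight actin filaments of the ring, and its 3 probes gave log2 ratios from 1.17 to 2.98. The brightest read 8.84, 8.63 and 8.58 in replicating and 7.53, 7.43 and 7.56 in quiescent cells, a log2 ratio of 1.17 (SE 0.31, 95% interval 0.40 to 1.95, unadjusted p 0.0114), which lost the call without preparation 1 (1.11, unadjusted p 0.106). The second probe gave 2.98 (SE 0.36, 95% interval 2.06 to 3.89) and the third 2.22 (SE 0.30, 95% interval 1.44 to 2.99), the quiescent cells being well above background on 1 and 2 of 3 arrays. Since signals not well above background enter the quiescent values of the dimmer probes, their ratios are less certain in size. Their unadjusted p-values in limma's test were 0.000368 and 0.000661. In replicating cells the second probe had the highest mean, 9.14, against 8.68 for the first. Whether the probes differ was not tested. All 3 lie on the minus strand of rn4 chromosome 15, the first across chr15:69003523-69044910, a stretch far longer than its 60 bases, the second at chr15:68795251-68795310 and the third at chr15:69217370-69217429. Their sequences, shown because the probes of this gene gave different ratios, are given in the same order.
*Diaph3* probe 1: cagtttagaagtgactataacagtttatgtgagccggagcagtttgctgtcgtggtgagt
*Diaph3* probe 2: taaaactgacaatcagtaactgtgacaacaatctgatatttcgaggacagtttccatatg
*Diaph3* probe 3: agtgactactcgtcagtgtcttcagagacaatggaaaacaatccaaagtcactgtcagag

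The related formins *Diaph1* and *Diaph2* differed between probes or preparations. *Diaph1* had 1.00 (SE 0.33, unadjusted p 0.0277) at its brighter probe, just past the call, and -1.09 (SE 0.52, unadjusted p 0.0896) at the dimmer. *Diaph2* had 0.20 (SE 0.44, unadjusted p 0.671), with ratios of 0.06, 1.13 and -0.61 in the preparations.

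In the contractile ring, *Anln* encodes anillin, the scaffold that links RhoA, actin, myosin and septins. Its probe (chr8:21641550-21641609, 10 spots) read 10.90, 10.36 and 10.47 in replicating and 7.24, 6.19 and 7.60 in quiescent cells. The groups were apart by 2.76 and the log2 ratio was 3.57 (SE 0.38), or 11.8-fold (95% interval 6.03 to 23.3, adjusted p 0.149).

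At the midbody, *Cep55* encodes the protein that recruits the ESCRT machinery to the bridge. It read 12.23, 12.43 and 11.83 in replicating and 7.16, 6.43 and 7.19 in quiescent cells (chr1:242398200-242398259). It had the largest ratio of the genes with a measured ratio, 5.24 on the log2 scale (SE 0.39), a 37.7-fold difference (95% interval 18.9 to 75.3), and its unadjusted p ranked 11 of all probes. The preparations gave 5.07, 6.00 and 4.64.

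*Chmp4b* encodes the main ESCRT-III subunit of the filament that constricts and cuts the bridge. It was the one gene not called. Its probe (chr3:145176412-145176471) read 10.12, 10.64 and 9.45 in replicating and 11.16, 12.30 and 9.72 in quiescent cells. The quiescent value was the higher in each preparation, by 1.03, 1.66 and 0.27, but the groups overlapped, and the log2 ratio of -0.99 (SE 0.39) had a 95% interval of -1.98 to 0.013 (unadjusted p 0.0521, adjusted p 0.475). A ratio below 0 in all preparations held for 20.1% of all probes. The largest of these differences, 1.66, came from the quiescent array that stood apart. *Chmp4b* passed the call as lower without preparation 3 (-1.34, unadjusted p 0.0284), a setting in which 12.6% of all probes did so. Without preparation 2 the ratio was -0.65 (unadjusted p 0.166). With only the quiescent array of preparation 2 left out, and no block, it was -0.37 (unadjusted p 0.526). Its close relative *Chmp4c*, which takes part in the abscission checkpoint, had a ratio of 0.02 (SE 0.30, 95% interval -0.75 to 0.80).

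In order of log2 ratio, with *Ect2* left out for its lower bound, the genes ran *Cep55*, *Arhgap11a*, *Prc1*, *Anln*, *Cit*, *Racgap1*, *Diaph3*, *Rhoa* and *Chmp4b*. The 95% intervals of neighbours overlapped in 7 of the 8 pairs. *Rhoa* and *Chmp4b* were the pair whose intervals did not meet.

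**Figure D2:**
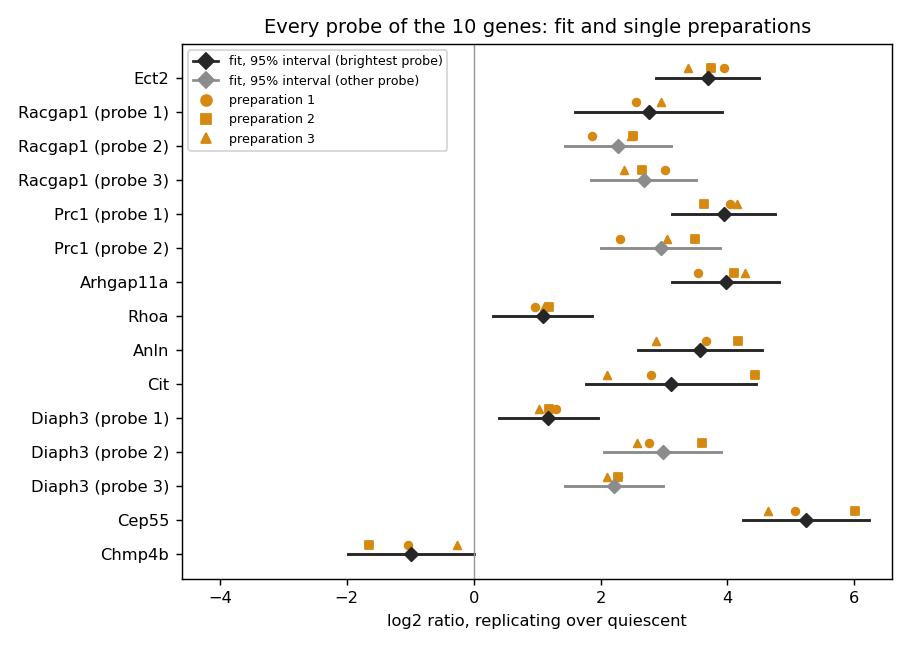
Log2 ratio of replicating over quiescent cells (horizontal axis) for all 15 probes, with the fitted value and its 95% interval (black for the brightest probe of a gene, grey for other probes) and the ratio in each islet preparation (orange). The fitted values run from -0.99 for *Chmp4b* to 5.24 for *Cep55*, the interval of *Ect2* rests on quiescent signals not well above background, and the probes of *Diaph3* spread from 1.17 to 2.98.

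Markers of other cell types also differed between the sorted fractions. The counts that follow stand beside 4.43% of all probes called higher and 4.18% called lower. Of the β-cell markers measured, 0 of 9 were called higher and 1 was lower (*Mafa*, -1.01), and the log2 of their summed level was 17.9 to 18.3 in replicating and 17.2 to 18.4 in quiescent cells. *Ins1* was abundant in both. Among fibroblast and stellate cell markers 3 of 10 were higher (*Col1a2*, 2.93, *Col3a1*, 3.04, and *Vim*, 1.89), with a summed level of 13.7 to 15.2 in replicating against 12.3 to 12.7 in quiescent cells.

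Of the α-cell markers 2 of 7 were higher (*Gcg*, 2.39, and *Gc*, 1.86), at 14.5 to 16.5 against 12.5 to 14.1, and so were 3 of 4 markers of δ- and PP-cells (*Sst*, *Rbp4* and *Ppy*, 12.3 to 13.3 against 11.1 to 12.0). Immune markers were higher in 2 of 6 (11.8 to 12.5 against 11.1 to 12.2), acinar in 1 of 7 (12.9 to 16.3 against 11.9 to 15.4), duct in 1 of 6 (14.5 to 14.8 against 14.7 to 15.3) and endothelial in 0 of 6 (12.1 to 13.2 against 12.3 to 14.0). The median log2 ratios in preparations 1, 2 and 3 were 1.59, 0.52 and 1.27 for the fibroblast list, 0.41, 0.82 and 0.62 for α-cells, 1.14, 1.18 and 1.16 for δ- and PP-cells, 1.11, 0.40 and 0.75 for immune cells and 0.28, 0.47 and -0.02 for acinar cells. The α-cell and acinar lists were thus highest in preparation 2, as was the median of the 10 cytokinesis genes, and the fibroblast and immune lists lowest. The δ- and PP-cell list was nearly even over the preparations. The central spindle and RhoA activation list described below was lowest in preparation 2. Ratios over all probes spread most widely in preparation 2, whose quiescent array stood apart. Each marker listed was well above background on at least 1 array. The part of these cells in the ratios of the cytokinesis genes was not tested.

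A wider list of 78 cytokinesis genes, the 10 included, was grouped by role. Over the 78, 22 were called higher and none lower, with a median log2 ratio of 0.71. The shares over all probes were 4.43% higher and 4.18% lower. Over the 68 outside the 10 genes, 13 were higher with a median of 0.57. The central spindle and RhoA activation list had the most calls, with 10 of 15 higher and a median of 2.72. Its ratios ran from -0.93 (*Birc5*, not called) to 5.12 (*Plk1*). Without *Ect2*, *Racgap1* and *Prc1* it kept 7 of 12 and a median of 1.83.

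Among these, *Plk1*, the mitotic kinase that prepares Ect2 recruitment, had a ratio of 5.12 (SE 0.48), 4.96, 6.21 and 4.17 in the preparations. *Kif20b*, a kinesin of the midbody, had 4.49 (SE 0.34). *Plk1* and *Kif20b* also stand in the study's own list of its strongest genes, chosen on these arrays, so their direction is not independent evidence. *Cdca8*, a subunit of the chromosomal passenger complex, had 3.21 (SE 0.31), and *Kif14*, a kinesin that brings citron kinase to the midzone, had 2.86 (SE 0.40) and 1.03 (SE 0.35) at its dimmer probe.

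In the list of ring, myosin and septin genes 5 of 18 were higher (median 0.62). Besides *Anln* these were the general actin cytoskeleton genes *Actb* (1.34, SE 0.33) and *Cfl1* (1.36, SE 0.35), the myosin light chain *Myl12a* (2.26, SE 0.72, from 0.58 to 4.18 over the preparations) and the light chain kinase *Mylk* (1.54, SE 0.57, groups overlapping). Several of these calls were lost under other settings, that of *Mylk* under 6 of 14 and those of *Actb* and *Myl12a* under 2 each and of *Cfl1* under 1, and that of *Diaph1* was lost under 5 and turned in sign under 1. *Actb*, *Cfl1*, *Myl12a* and *Mylk* are used by many cell types outside division. The midbody and membrane traffic list had 2 of 14 higher, *Cep55* and *Arf6* (2.06, SE 0.48), a GTPase of endosomal traffic, and a median of 0.26.

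The ESCRT and abscission list had 0 of 20 higher and 0 lower, with a median of 0.12 and ratios from -0.99 to 1.51. With 4.43% of all probes called higher and 4.18% lower, a count of 0 in 20 lies near those shares. *Chmp7* was its one gene with an unadjusted p under 0.05 (0.0452), at a ratio of 0.83 (SE 0.32). Its dimmer probe had 0.62 (SE 0.46, unadjusted p 0.235), with 1.32, 1.03 and -0.49 in the preparations. The medians of the ESCRT list by preparation were 0.17, 0.51 and -0.19, while those of the central spindle list were 2.56, 2.42 and 2.96. The differences between these lists were not tested.

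**Figure D3:**
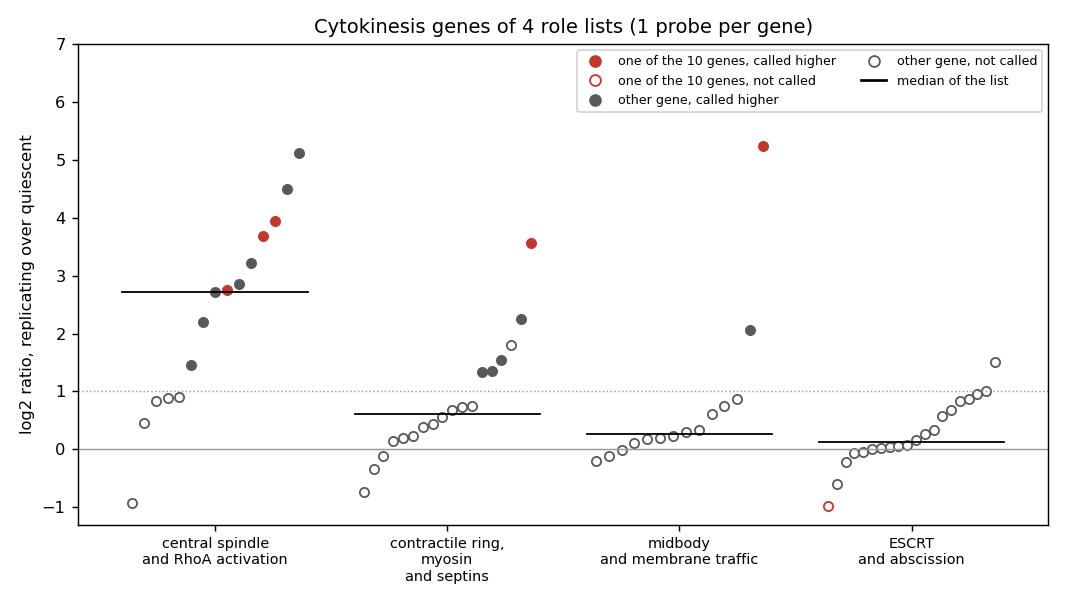
Log2 ratio of replicating over quiescent cells (vertical axis) for the genes of 4 role lists within the 78 cytokinesis genes, 1 probe a gene, sorted within each list. Red marks those of the 10 genes that these lists hold and grey the others, filled points passed the call as higher, the black bars are medians and the dotted line is the log2 ratio of 1 that the call requires. The medians step down from 2.72 at the central spindle to 0.12 for ESCRT and abscission.

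For each gene the one most like it was sought by Pearson's r over the 6 arrays, among 14483 genes well above background on all of them. For *Ect2* and *Diaph3* this was the condensin subunit *Ncaph* (r of 0.9988 and 0.9981). For *Arhgap11a* and *Rhoa* it was cyclin B1, *Ccnb1* (0.9976 and 0.9977). For *Prc1* it was *Cks1b* (0.9988), for *Anln* *Cdc45* (0.9992) and for *Cep55* *Fancd2* (0.9994). *Cit* paired with *Phkg2* (0.9944) and *Chmp4b* with *Tmem38b* (0.9963), while *Racgap1* lacked a value and was not ranked. These points share arrays that fall into 2 groups, so r also carries the difference between the groups and is given as a description.

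The promoter windows of 9 of the 10 genes were found in RefSeq (GRCr8, 250 bases before to 50 after the listed start). They were searched on both strands for the CHR, the cell cycle homology region near the start of many G2-M genes (TTTGAA or TTCGAA), for CCAAT, which often stands upstream of it, and for an E2F core (TTGGCGC or TTCGCGC). The CHR letters were in 6 of 9 windows (*Ect2*, *Prc1*, *Rhoa*, *Anln*, *Cit* and *Cep55*), beside 19.7% of all 33469 windows, and CCAAT in 4 (*Ect2*, *Prc1*, *Rhoa* and *Diaph3*), beside 37.5%. The E2F core was in 1, *Ect2*, where it overlaps a CCAAT, beside 3.66%. The windows of *Arhgap11a* and *Chmp4b* held none of these. The listed starts of *Rhoa* and *Arhgap11a* lie 24088 and 10517 bases inside the gene, so those windows may not be the promoter in use, and that of *Cit* lies 986 bases inside. Those of *Ect2*, *Prc1*, *Cep55* and *Diaph3* lie 160, 169, 91 and 71 bases inside. A match before the listed start can therefore still lie within the annotated gene. For the genes with a CHR other than *Rhoa*, 30 bases around one match are shown with the CHR letters in capitals. For *Cep55* the letters read on the other strand. In the order printed, the matches lie 3, 18, 24, 96 and 47 bases before the listed start. A link between the matches and the ratios was not tested. A match is a description of the letters and not a bound site.
*Ect2* chr2:111966612-111966641, minus strand: gcgtctgggtttTTTGAAtcggaggcggta
*Prc1* chr1:143659451-143659480, plus strand: cctccggctcggTTTGAAttccgcggggtc
*Anln* chr8:29197520-29197549, minus strand: tgaaattcaaatTTTGAAcggccgtggtag
*Cit* chr12:46424735-46424764, minus strand: gctgttagttctTTTGAAaatggtttattt
*Cep55* chr1:245245304-245245333, plus strand: gcagccgcgggaTTCAAActcccggaagcg

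Under 14 other ways of processing the arrays, 6 to 9 of the 10 genes were called higher. The 14 include a recomputation of the deposited values, which could not differ. The 6 called each time were *Ect2*, *Prc1*, *Arhgap11a*, *Anln*, *Cit* and *Cep55*, and no gene of the 10 changed sign. *Rhoa*, *Diaph3* and *Racgap1* lost the call under some of them, while *Chmp4b* gained it once.

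**Figure D4:**
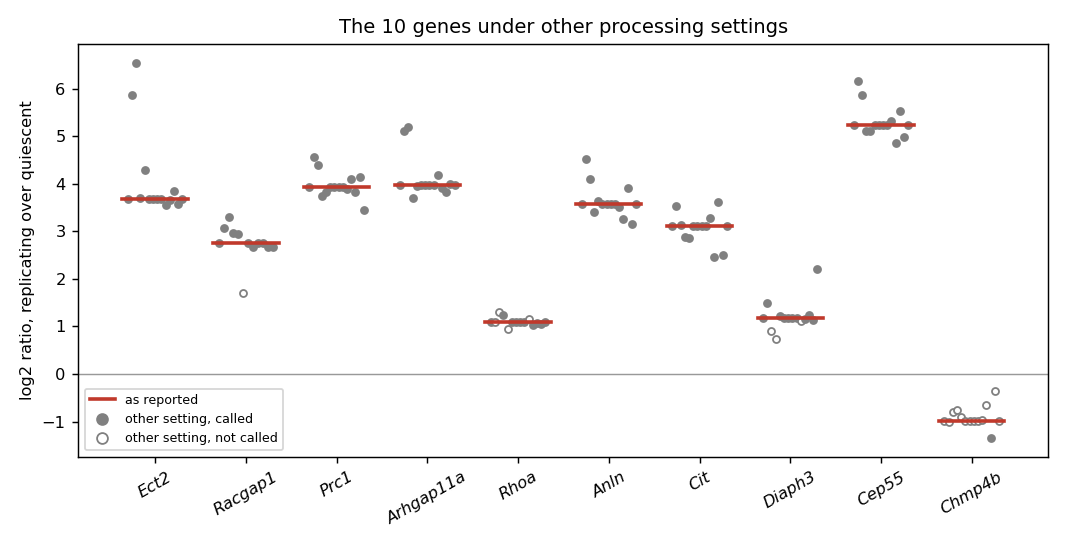
Log2 ratio of replicating over quiescent cells (vertical axis) for the 10 genes as reported (red bar) and under the other processing settings (grey points, filled where the gene passed the call in either direction). All values of 9 genes lie above 0 and all values of *Chmp4b* between -1.34 and -0.37.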

How the data were processed

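RNA of sorted replicating and quiescent β-cells was amplified and hybridized, as Cy3 cDNA, to Agilent rat expression arrays with probe positions on rn4. The authors read the scans with Feature Extraction 10.7.3.1, and these deposited files hold spot intensity, local background and marks for outliers and signal well above background. A second deposited table holds the authors' log2 value of each spot, background-corrected with normexp and quantile normalized; recomputing them from the intensities with a normexp offset of 50 gave a largest difference of 0.000245, which settled scale, centring and direction.

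The deposited log2 values were used. Outlier spots were set to missing, spots of a probe were averaged (45598 probes), and where a gene had more than 1 probe, the one brightest over all 6 arrays stood for it. A probe counted as well above background where most of its spots were marked so. Probes were fitted in limma 3.58.1 (R 4.3.3; lmFit, eBayes), blocked by islet preparation like the study's paired test, after the script had been tested on simulated data. Pairing comes from the separate sorting of each preparation; paired arrays deviated from the means of their groups with correlations of 0.0561, 0.242 and 0.259. A call needed an unadjusted p no higher than 0.05 with a log2 ratio of 1 or more in size; adjusted p-values follow Benjamini-Hochberg, over all probes. Intervals are 95% intervals from the same fit, and the number of arrays limits their precision.

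The genes, role lists, markers, tests and alternatives were chosen with earlier results of these data known. Besides the 10 genes, the text names up to 4 genes of each role list with the smallest unadjusted p under 0.05 and 1 sign in all preparations, fixed relatives of the 10 genes, and for each the gene with the highest r. *G6pc2* was not found by name. The results of 1 role list are not reported here. Protein sequences and the promoter window of *Racgap1* were not used here.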

Additional observations from a re-analysis of the deposited data

How the results depend on the processing

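The alternatives were normexp from the scanner files at offsets of 50 and 0, processed signal or normexp scaled to the 75th percentile, cyclic loess, only probes well above background in a group, outlier spots kept, no replicate block, a trend in the variance, a gene's probes taken by their median, the preparations left out 1 at a time and, chosen after seeing the data, the quiescent array of preparation 2 left out without the replicate block. The count of the 10 genes called higher was 7 with processed signal, 8 with offset 0, normexp at the 75th percentile, cyclic loess or outlier spots kept, 6 to 9 with a preparation left out and 9 otherwise. Their median of 3.34 became 4.03 at offset 0 and 2.91 without the quiescent array of preparation 2, and ranged from 3.01 to 3.82 with a preparation left out. The wider count of 22 became 14 with processed signal and ranged from 13 (without preparation 1) to 27 (without preparation 3), where 1.15% and 11.4% of all probes were called higher. With no replicate block the counts were 9 and 19 and the median 3.34, while the adjusted p fell under 0.05 for 99 probes and 5 of the 10 genes. Adjusted p also passed for 712 probes and 7 genes with normexp at the 75th percentile, 204 and 6 with cyclic loess, 61 and 4 with a variance trend, 84 and 5 without preparation 2, and 151 and 6 without that quiescent array.

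Processed signal and normexp at the 75th percentile moved the median of all probes to -0.71 and -0.39, with 1.45% and 3.49% of probes higher and 6.99% and 12.8% lower. *Diaph2* was -0.64 and -0.37 there and *Chmp4c* -0.84 and -0.49. *Diaph2* was -0.23 without the quiescent array of preparation 2, and with a preparation left out it ranged from -0.27 (without 2) to 0.60. *Chmp4c* was -0.031 without that array, and ranged from -0.014 (without 1) to 0.08, with -0.001 without 3. *Diaph1* was -0.041 by the median of its probes. Of 138 values of the 10 genes, 129 kept direction and call, 8 lost the call, 1 gained it and 0 turned. Besides those given above, *Rhoa* lost it at offset 0 (1.10, unadjusted p 0.0635), with processed signal (1.30, unadjusted p 0.0845) and with cyclic loess (0.95, unadjusted p 0.0227), and *Diaph3* with processed signal (0.90) and normexp at the 75th percentile (0.73). The causes were not tested. The brightest probe of *Racgap1* gave no value without preparation 1 or 3.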
